A study of Saccharomyces cerevisiae with 4 samples.

Results

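The plasma membrane amino acid permeases of Saccharomyces cerevisiae are the transporters through which the cell takes up amino acids from its medium. The 10 genes described here are AGP1, BAP2, BAP3, TAT1, TAT2, GNP1, MUP1, DIP5, GAP1 and CAN1. They were chosen by gene symbol from the 6388 gene probes on the array, and each was measured by 1 probe that was spotted 2 times per array. Their mRNA was compared between cells in low phosphate and cells in standard phosphate, and each group was set against a common reference RNA.

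All samples were BY4742, a laboratory yeast that is haploid and of the alpha mating type, carrying YCpLac111, a centromeric plasmid with the LEU2 gene. The medium was synthetic complete medium lacking phosphate, to which 75 uM phosphate (low phosphate) or 10 mM phosphate (standard phosphate) was added back. Each group held 2 arrays, called a and b in the labels. On a arrays the sample carried Cy3 and the reference Cy5, and on b arrays the dyes were swapped, so that culture and dye cannot be told apart within a group. The reference was 1 RNA pool of wild-type BY4742 with no plasmid named. The sources differ on what these arrays are. The series text calls them independent cultures, whereas the methods describe biological replicates that were each hybridised again with the dyes swapped, and the sample titles give both arrays of a group the same number. If both arrays of a group came from 1 culture, the SDs and p-values below measure technical spread only.

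Amino acid permeases carry amino acids inward together with protons. Many of them, BAP2, BAP3, TAT1, TAT2, AGP1, GNP1, DIP5 and MUP1 among them, are induced when amino acids outside the cell are sensed by the SPS sensor (Ssy1, Ptr3 and Ssy5), which releases the transcription factors Stp1 and Stp2. GAP1 is governed instead by nitrogen quality, its transcription being repressed on rich nitrogen sources. Permeases at the membrane are also removed by ubiquitin-linked endocytosis, a step that mRNA levels do not show.

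All values below are log2 ratios of sample over reference, or differences between such ratios. They are relative to the whole signal of an array, and a lower level in every cell cannot be told apart from the loss of a transcript in some of the cells. The arrays differed in spread. Over all gene probes the SD of the log2 ratios was 0.270 on low phosphate a and 0.599 on low phosphate b, against 0.270 on standard phosphate a and 0.197 on standard phosphate b. The phosphate-regulated genes PHO84 (a phosphate transporter), SPL2 and VTC3 were higher in low phosphate, by 1.46, 2.75 and 2.04 on the log2 scale. Each of these genes also lay above the reference on both standard phosphate arrays. The log2 ratios on standard phosphate a and b were 2.26 and 2.21 for PHO84. They were 1.504 and 0.903 for SPL2, and 1.293 and 0.854 for VTC3. All 40 permease readings, 10 genes on 4 arrays, were above 2 times the local background in both channels. The sample signal ran from 4.21 to 50.4 times background and the reference signal from 2.14 to 104 times background. The duplicate spots of a permease differed by a median of 0.025 on the log2 scale and by at most 0.16, for BAP2 on standard phosphate a.

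Of the 10 permeases, 8 had a lower mean in low phosphate than in standard phosphate, and the median difference over the 10 was -0.29, against 0.00010 over all gene probes. In both dye orientations 8 permeases were lower (35.4% of all probes were) and 1 was higher (35.5% of all probes). The values of both low phosphate arrays lay below those of both standard phosphate arrays for 7 permeases, whereas this held for 26.8% of all probes. No permease had both low phosphate arrays above both standard phosphate arrays, an arrangement found for 26.5% of all probes. The study called genes changed at over 1.7-fold with p under 0.05. With these thresholds 1 permease, BAP2, was called lower (1.47% of all probes) and none was called higher (1.6% of all probes). None had an adjusted p under 0.05 in limma with Benjamini-Hochberg adjustment over all probes, and 1 of the 6388 probes did (0.0157%). At an unadjusted limma p under 0.05 there were 3 permeases, BAP2, BAP3 and CAN1, and 733 probes in all (11.5%). These counts changed when single low phosphate arrays were left out. Such fits hold 1 low phosphate array and take their spread from the standard phosphate pair alone, so only effect sizes are given here. The median difference over the 10 was -0.27 without low phosphate a and -0.33 without low phosphate b.

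**Figure D1:**
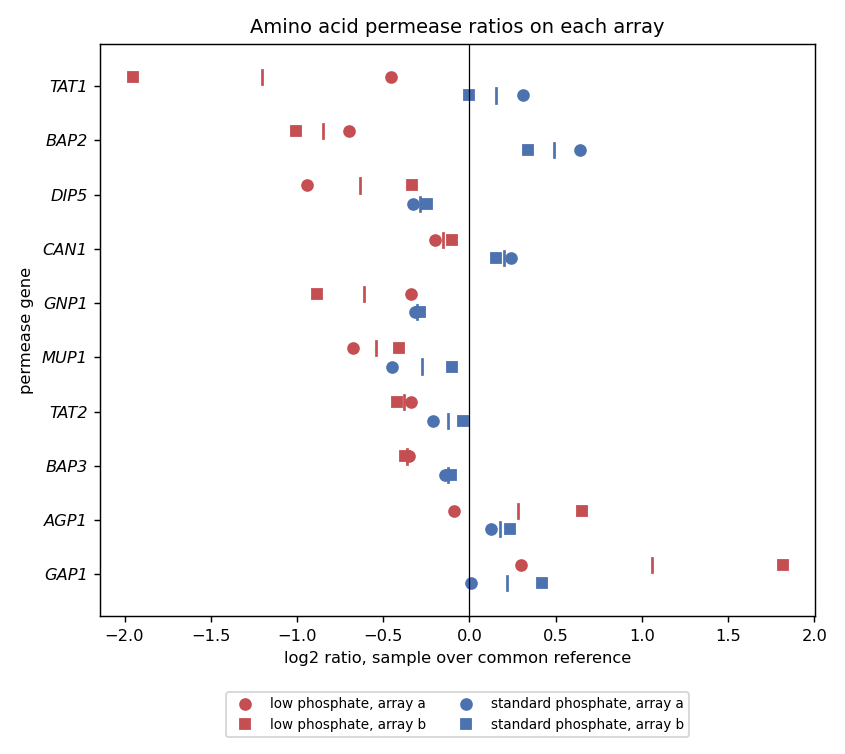
The log2 ratio of sample over reference (horizontal axis) is plotted for each permease gene (vertical axis) on each array, with low phosphate in red above standard phosphate in blue, circles for a arrays, squares for b arrays and short bars for group means (n = 2 arrays). BAP2 shows both low phosphate arrays below 0 and both standard phosphate arrays above 0, while TAT1 and GAP1 show low phosphate arrays about 1.5 apart on the log2 scale.

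BAP2 and TAT1, permeases for branched-chain and aromatic amino acids, had the lowest differences of the 10. BAP2, which carries leucine, isoleucine and valine, had log2 ratios of -0.70 and -1.003 on low phosphate a and b, against 0.64 and 0.34 on standard phosphate a and b. The groups lay on opposite sides of the reference and did not overlap. The means were -0.85 ± 0.21 in low phosphate and 0.49 ± 0.21 in standard phosphate (SD, n = 2 arrays each). The difference was -1.34 (SE 0.17, 95% interval -1.82 to -0.86), which is 2.53-fold lower in low phosphate, with an unadjusted p of 0.0015 and an adjusted p of 0.348 in limma. It was nearly the same in each orientation, at -1.34 on a arrays and -1.34 on b arrays. Sorted from the lowest difference up, BAP2 was number 17 of the 6388 probes.

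TAT1, the low-affinity tyrosine permease, which also takes up branched-chain amino acids, had log2 ratios of -0.45 and -1.95 on low phosphate a and b, against 0.31 and -0.0014 on standard phosphate a and b. Both low phosphate arrays were below both standard phosphate arrays, but they lay far apart from each other, low phosphate b minus low phosphate a being -1.498. A larger gap between these arrays was seen for 1.05% of all probes. The difference of -1.36 (SE 0.55, 95% interval -2.89 to 0.17) was of the size of that of BAP2, and its adjusted p was 0.421 in limma. It was -0.77 on a arrays and -1.95 on b arrays, and it was -0.61 without low phosphate b and -2.11 without low phosphate a. TAT1 did not pass the study's thresholds in the main analysis (unadjusted p of 0.069 in limma). It passed under median centring, loess on spike-in spots, scaling between arrays and with the dye orientation as a replicate block. There 236, 298, 255 and 334 of all probes passed, in that order, against 196 in the main analysis. It did not pass under the other alternatives that kept all arrays, such as print-tip loess and the deposited log2 ratios.

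BAP3, the paralog of BAP2, had log2 ratios of -0.35 and -0.37 in low phosphate a and b, against -0.14 and -0.11 in standard phosphate a and b. The arrays of each group lay close together and the groups did not overlap, yet the shift was small. The difference was -0.24 (SE 0.085, 95% interval -0.48 to -0.00041), with an adjusted p of 0.420 in limma. TAT2, the high-affinity tryptophan and tyrosine permease, had log2 ratios of -0.34 and -0.42 in low phosphate a and b, against -0.21 and -0.036 in standard phosphate a and b. Its groups also did not overlap, and its difference of -0.26 (SE 0.11, 95% interval -0.56 to 0.044) had an adjusted p of 0.421 in limma. BAP2 and BAP3 are similar in sequence, and so are other permeases described here, and cross-hybridisation between their probes was not tested.

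BAP2 and TAT1 are next to each other in the genome by RefSeq gene order. The genes on the outer sides of the pair, TIP1 beside BAP2 and ALG14 beside TAT1, had differences of 0.11 and 0.15. RefSeq also lists the noncoding RNA TBRT across TAT1, and the strand read by the TAT1 probe is not given in the sources used here. The mean of the marker LEU2, which the plasmid carries, was also lower in low phosphate. Its log2 ratios were 0.57 and 1.09 on low phosphate a and b, against 2.61 and 1.48 on standard phosphate a and b. The part of the plasmid marker in the permease values was not tested.

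**Figure D2:**
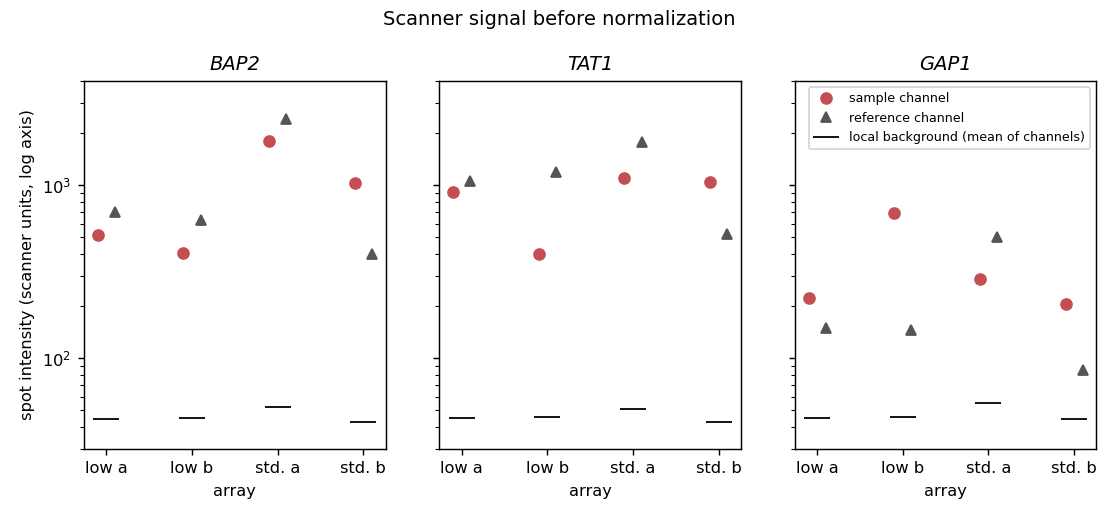
Spot intensity before normalization (vertical log axis, scanner units) is plotted for BAP2, TAT1 and GAP1 on each array, with circles for the sample channel, triangles for the reference channel and bars for the mean local background. On low phosphate b the sample signal of TAT1 is 400 against 1196 in the reference channel and that of GAP1 is 690 against 146. Standard phosphate a is brighter in the reference channel for each of these genes, as it is over all gene spots (median 703 against 383 in the sample channel).

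AGP1 and GNP1 are paralogs with broad specificity. GNP1, a high-affinity glutamine permease, had log2 ratios of -0.34 and -0.88 in low phosphate a and b, against -0.32 and -0.29 in standard phosphate a and b. The groups were separated by a narrow margin, since the difference was -0.026 on a arrays and -0.59 on b arrays. The difference over all arrays was -0.31 (SE 0.21, adjusted p of 0.502 in limma), and it was -0.039 without low phosphate b and -0.58 without low phosphate a. AGP1, a low-affinity permease for many amino acids, had log2 ratios of -0.089 and 0.65 in low phosphate a and b, against 0.12 and 0.24 in standard phosphate a and b. The standard phosphate values lay between the low phosphate ones, so that the groups overlapped and the orientations disagreed in sign. Its difference was 0.10 (SE 0.28, 95% interval -0.67 to 0.88, adjusted p of 0.880 in limma), and it was -0.27 without low phosphate b and 0.47 without low phosphate a.

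GAP1, the general amino acid permease, had the highest difference of the 10. Its log2 ratios were 0.30 and 1.82 in low phosphate a and b, against 0.011 and 0.42 in standard phosphate a and b. Low phosphate a lay between the standard phosphate arrays and low phosphate b lay above both. The difference of 0.84 (SE 0.56, 95% interval -0.73 to 2.41) corresponded to 1.79-fold higher in low phosphate, with an unadjusted p of 0.211 and an adjusted p of 0.4995 in limma. It was 0.29 on a arrays and 1.39 on b arrays, and it was 0.081 without low phosphate b and 1.5995 without low phosphate a. GAP1 was dim, with a sample signal of 4.21 times background and a reference signal of 2.14 times background on standard phosphate b. On that array AGP1 was nearly as dim, at 4.88 times background in the sample channel and 2.86 in the reference channel.

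The remaining 3 permeases, MUP1, DIP5 and CAN1, had lower means in low phosphate. MUP1, the high-affinity methionine permease, had log2 ratios of -0.68 and -0.41 in low phosphate a and b, against -0.45 and -0.10 in standard phosphate a and b. The groups overlapped, and the difference was -0.27 (SE 0.18, adjusted p of 0.496 in limma). With arrays left out in turn it ran from -0.44 without standard phosphate a to -0.093 without standard phosphate b. DIP5, the permease for glutamate and aspartate, had log2 ratios of -0.94 and -0.33 in low phosphate a and b, against -0.33 and -0.25 in standard phosphate a and b. The groups did not overlap, but low phosphate b (-0.3314) and standard phosphate a (-0.3255) were almost equal. The difference of -0.35 (SE 0.23, adjusted p of 0.499 in limma) was -0.045 without low phosphate a and -0.66 without low phosphate b. CAN1, the arginine permease that also admits the toxic analog canavanine, had log2 ratios of -0.20 and -0.10 in low phosphate a and b, against 0.24 and 0.16 in standard phosphate a and b. The groups lay on opposite sides of the reference, except with loess on spike-in spots, where the low phosphate mean was 0.066. The difference was -0.35 (SE 0.096, 95% interval -0.62 to -0.083, adjusted p of 0.420 in limma).

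**Figure D3:**
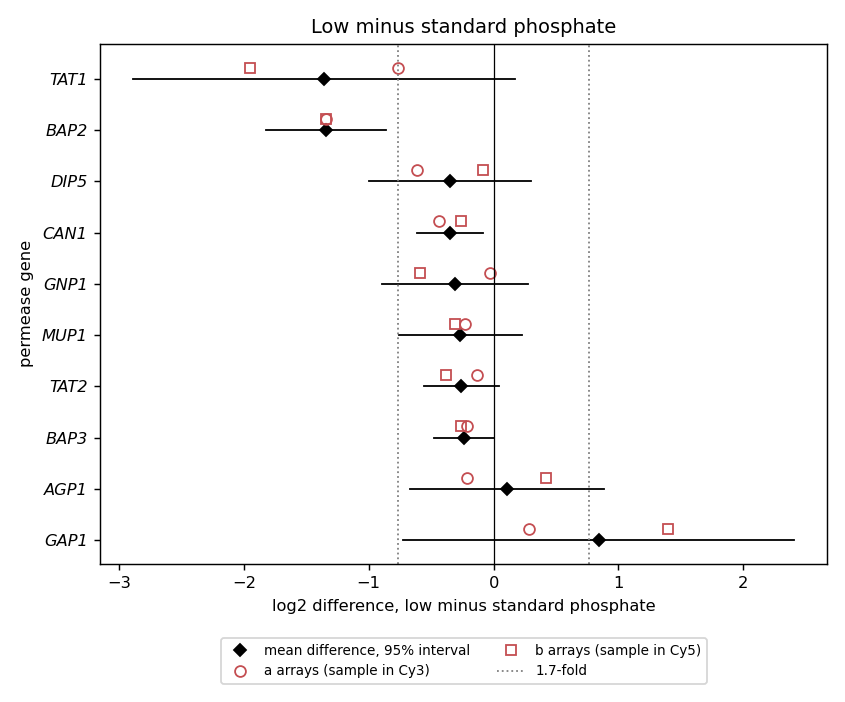
The log2 difference of low minus standard phosphate (horizontal axis) is plotted for each permease gene (vertical axis) as a diamond with its 95% interval, with open circles for a arrays, open squares for b arrays and dotted lines at 1.7-fold. The intervals of BAP2, CAN1 and BAP3 lie below 0, and that of BAP2 alone lies past 1.7-fold over its whole length.

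**Figure D4:**
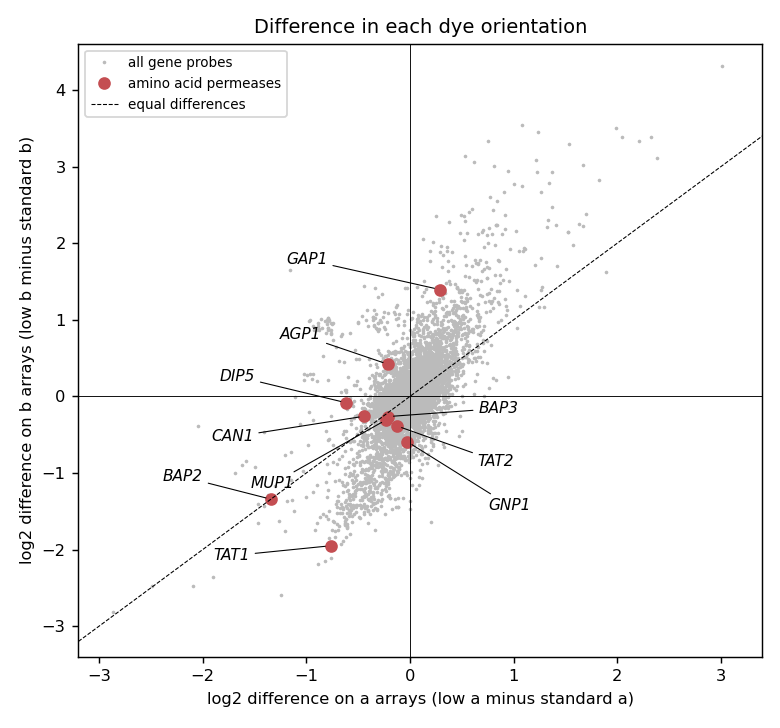
The difference between low phosphate b and standard phosphate b (vertical axis, log2) is plotted against that between low phosphate a and standard phosphate a (horizontal axis, log2) for all 6388 gene probes (grey) and the 10 permeases (red), with equal differences on the dashed line. BAP2 lies on the line at -1.34 on both axes, and TAT1 and GAP1 lie away from it at -0.77 and -1.95, and at 0.29 and 1.39.

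The permeases thus varied in how well the low phosphate arrays repeated each other. Over all gene probes the median size of the gap between these arrays was 0.18. The difference of low phosphate b minus low phosphate a was -0.021 for BAP3, -0.080 for TAT2 and 0.097 for CAN1. It was -0.30 for BAP2 and 0.27 for MUP1, and it was -0.54 for GNP1, 0.61 for DIP5 and 0.74 for AGP1. Its size was largest for GAP1 (1.52) and TAT1 (-1.498), which went opposite ways.

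Against the common reference, no permease had an adjusted p under 0.05 in limma in low phosphate (0.297% of all probes did) or in standard phosphate (0.0783% of all probes did). In low phosphate 8 permeases lay below the reference on both arrays (35.4% of all probes did) and 1, GAP1, lay above on both (35.6% of all probes). Their means ran from -1.20 for TAT1 to 1.06 for GAP1, and 7 had an unadjusted limma p under 0.05 (26.4% of all probes did). In standard phosphate 5 permeases lay below the reference on both arrays (33.6% of all probes) and 4 above on both (34.6% of all probes), with means from -0.30 for GNP1 to 0.49 for BAP2. Here 2 had an unadjusted limma p under 0.05, BAP2 and CAN1 (11.1% of all probes did). Scaling between arrays, with all arrays kept, gave 3 permeases with an adjusted limma p under 0.05 in low phosphate. These were BAP2, TAT1 and GNP1, with 481 probes in all against 19 in the main analysis. The counts also changed when single low phosphate arrays were left out. Such fits take their spread from the standard phosphate pair alone. Each comparison uses the same RNA pool as its baseline, and the spread of that pool is left out of the test.

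No listed gene of the SPS sensor pathway, of permease maturation and sorting, or of nitrogen source regulation passed the study's thresholds. Over all probes 1.47% passed as lower and 1.6% as higher. Of 12 SPS sensor pathway genes, 3 had a lower and 9 a higher mean in low phosphate (median 0.16). The largest difference was that of ASI2, which encodes an inner nuclear membrane protein that keeps latent Stp1 and Stp2 from acting, at 0.31 (SE 0.21). Of 15 measured genes for permease maturation and ubiquitin-linked sorting, 5 had a lower and 10 a higher mean (median 0.044). The furthest from 0 was LST7, which acts in the delivery of Gap1 to the cell surface, at -0.29 (SE 0.17). Among 7 nitrogen source regulators 4 were lower and 3 higher (median -0.14). The GATA factor GAT1, an activator of nitrogen-repressed genes such as GAP1, had the largest difference at 0.40 (SE 0.14, adjusted p of 0.420 in limma).

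Among other transporters, SAM3, OPT1 and ATO3 passed the study's thresholds, all lower in low phosphate. Among the 10 other permeases of the same families, 4 were lower and 6 higher (median 0.016), and 1 passed. SAM3, the S-adenosylmethionine permease, had log2 ratios of -0.94 and -1.47 in low phosphate a and b, against -0.29 and -0.22 in standard phosphate a and b, with a difference of -0.95 (SE 0.21, adjusted p of 0.420 in limma). Among 10 peptide, ammonium and other nitrogen transporters, 3 were lower and 7 higher (median 0.069), and 2 passed, both lower. OPT1, an oligopeptide and glutathione transporter, had log2 ratios of -0.79 and -0.98 in low phosphate a and b, against 0.019 and -0.10 in standard phosphate a and b (difference -0.84, SE 0.12). ATO3, a membrane protein linked to ammonium export, had log2 ratios of -0.73 and -1.59 in low phosphate a and b, against 0.085 and -0.025 in standard phosphate a and b (difference -1.19, SE 0.32). For each of these 3 genes, named because they passed, the groups did not overlap. Over all probes 1.47% passed as lower, and 26.8% had both low phosphate arrays below both standard phosphate arrays. Among 11 measured vacuolar amino acid transporters, 4 were lower and 7 higher (median 0.043) with none past the thresholds, and ATG22, which exports amino acids from the vacuole, had the largest difference at 0.80 (SE 0.34). No gene of these lists had an adjusted p under 0.05 in limma.

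**Figure D5:**
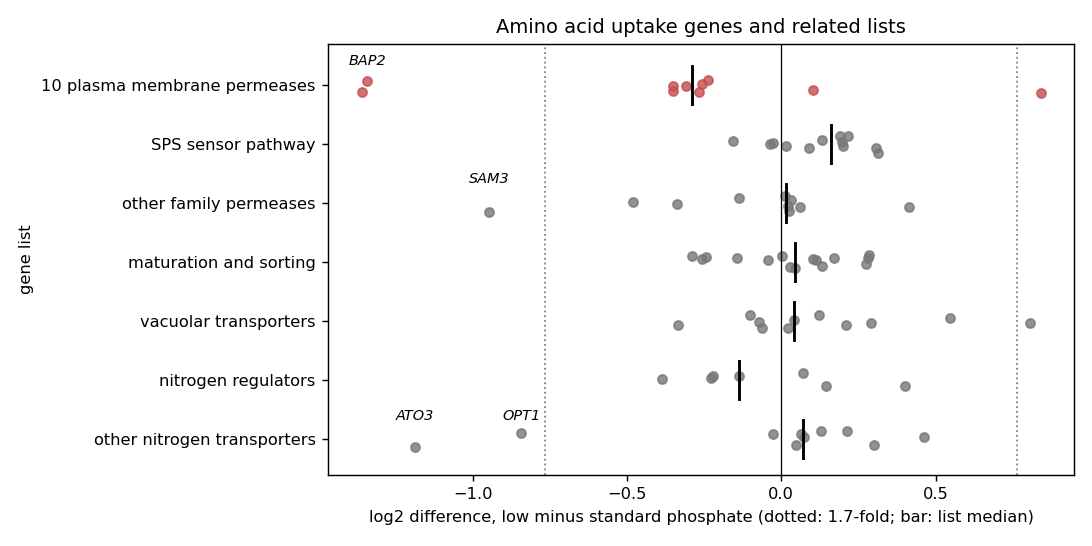
The log2 difference of low minus standard phosphate (horizontal axis) is plotted for each gene of the 10 permeases (red) and of 6 related lists (grey), 1 list per row, with a bar at each list's median, dotted lines at 1.7-fold and names on genes past the study's thresholds. The permease median lies at -0.29, and the other medians lie between -0.14 and 0.16.

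The genes whose ratios over the 4 arrays were nearest to TAT1 and GAP1, the permeases with the lowest and the highest difference, were found by Euclidean distance on the log2 scale. Nearest to TAT1 were ARX1 (distance 0.11), RKI1 (0.22) and AAH1 (0.26). ARX1 had log2 ratios of -0.44 and -1.90 in low phosphate a and b, against 0.29 and 0.090 in standard phosphate a and b. As the genes were picked by nearness on these same ratios, a like gap between the low phosphate arrays follows from the choice. Nearest to GAP1 were PST2 (distance 0.18), FMP33 (0.32) and YDL124W (0.32). PST2 had log2 ratios of 0.41 and 1.74 in low phosphate a and b, against -0.037 and 0.32 in standard phosphate a and b.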

How the data were processed

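The mRNA of 4 samples was measured on 2-colour spotted oligonucleotide arrays. The deposited scanner intensities, quantified by the authors with Imagene, are spot means and local background medians per channel, not normalized, and were the start of the analysis. The deposited log2 ratios, which the authors normalized by print-tip loess and corrected for dye bias, were used as an alternative. A table of the authors' own test results (log2 ratios and p-values) was not used. The submitters' processing notes name limma 2.12.0.

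In R 4.3.3 with limma 3.58.1, backgrounds were corrected by normexp (offset 50), ratios were normalized by loess within arrays, control spots having weight 0, and turned to log2 sample over reference. Duplicate spots were averaged. Group means were fitted over all 4 arrays with lmFit and eBayes, with two-sided tests and Benjamini-Hochberg adjustment over 6388 probes. The study does not say whether the p of its own thresholds was adjusted; the unadjusted p was used for them. The 2 residual degrees of freedom limit the precision. The script was tested on simulated data.

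All 10 permeases are named. List genes are named where past the study's thresholds, otherwise the 1 furthest from 0 per list. For the permeases with the highest and lowest difference, the 3 nearest genes are named. LEU2, PHO84, SPL2 and VTC3 serve as markers. The mating type markers were measured for alpha cells (MF(ALPHA)1, MF(ALPHA)2, STE3, SAG1) and a cells (MFA1, MFA2, STE2, BAR1, AGA2). The 4 alpha genes differed by -1.28 (MF(ALPHA)2) to 0.19 (MF(ALPHA)1) between low and standard phosphate, and MF(ALPHA)2 and SAG1 (-0.81) passed the study's thresholds, both lower, with adjusted p of 0.420 in limma. The 5 a-cell genes differed by -0.038 to 0.054 and none passed. Members and lists were chosen with earlier results of these data known. ART10, YPQ1, YPQ2, YPQ3 and PHO5 had no matching symbol. Gene order is from RefSeq (R64). Promoter motifs and proteins were not analysed here. Alternatives changed 1 step at a time.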

Additional observations from a re-analysis of the deposited data

How the results depend on the processing

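BAP2 was lower in low phosphate and past the study's thresholds under all 13 alternatives, with differences of -1.49 to -1.19. TAT1 stayed lower (-2.11 to -0.61) and GAP1 higher (0.081 to 1.5995) under all 13. Permeases past the study's thresholds numbered 1 in the main analysis, and 2 (BAP2 and TAT1) under median centring, under loess on spike-in spots, under scaling between arrays and with the dye orientation as a replicate block, where 236, 298, 255 and 334 of the 6388 probes passed, in that order, against 196 in the main analysis. With arrays left out this count was 1 to 3, the 3 being BAP2, TAT1 and GAP1 without low phosphate a, where 936 probes passed. Permeases with an adjusted p under 0.05 for the difference numbered 0, also with the block, but 0 to 5 with arrays left out. There were 5 without low phosphate a (AGP1, BAP2, TAT1, GNP1 and GAP1, with 2030 probes in all) and 1 (BAP2, with 96 probes in all) without low phosphate b, the single array left being taken to have the spread of the standard phosphate pair. Over the reference, scaling between arrays gave 3 such permeases in low phosphate (BAP2, TAT1 and GNP1), with 481 probes in all against 19 in the main analysis. With arrays left out the counts were 0 to 9 in low phosphate (0 to 2504 of all probes) and 0 to 3 in standard phosphate (0 to 570 of all probes). The median difference of -0.29 was -0.20 under median centring, -0.20 under scaling between arrays, -0.38 from the deposited log2 ratios, -0.29 with the replicate block, and -0.33 to -0.26 with arrays left out. The sign turned for 7 single values. With loess on spike-in spots, the log2 ratio over reference became 0.083 for BAP3 and 0.097 for TAT2 in standard phosphate, and 0.066 for CAN1 in low phosphate. The AGP1 difference became -0.10 under scaling between arrays and ran from -0.27 without low phosphate b to 0.47 without low phosphate a, and its low phosphate ratio ran from -0.089 to 0.65. The TAT1 ratio in standard phosphate was -0.0014 without standard phosphate a and 0.31 without standard phosphate b. The causes were not tested. The replicate letter pairs no samples beyond the dye. The deviations b minus a correlated at 0.28 between low and standard phosphate over 6388 probes.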
